A study of Mus musculus with 8 samples.

Results

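The genes described here encode peptidases that cut angiotensin and related peptides at the cell surface (Enpep, Anpep, Ace, Mme, Dpp4 and Lnpep), the precursor of angiotensin (Agt) and its receptors (Agtr1a and Agtr2). These 9 genes were taken by symbol from a table of 24918 entries, and each had 1 entry. Enpep led to the choice of this family, because it had the most negative difference between genotypes of all tested entries. The other members were added by function. The values of Enpep are therefore given as a description, without a test.

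RNA was sequenced from whole corneas of male mice aged 3 months on a C57BL/6J/FVB background. Mice of the corneaGRKO group (GRloxP/loxP-PAX6Cre/+) carried floxed alleles of Nr3c1, the glucocorticoid receptor gene, and Cre driven by the P0 promoter of Pax6, with the corneal epithelium as the intended site of deletion. Their control littermates, the GRflox group (GRloxP/loxP-PAX6+/+), carried the same floxed alleles and no Cre, so effects of Cre itself and of receptor loss cannot be told apart. Pools of 4 to 6 corneas were sequenced, giving 4 libraries per genotype, with replicate numbers 1, 3, 4 and 5 in both.

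Angiotensinogen is cut by renin to angiotensin I, which angiotensin-converting enzyme trims to angiotensin II, a ligand of the type 1 and type 2 angiotensin receptors. Aminopeptidase A, the product of Enpep, removes the acidic first residue of angiotensin II and gives angiotensin III, and aminopeptidase N, the product of Anpep, removes the next residue and gives angiotensin IV. These enzymes sit on the outside of the plasma membrane and also cut other peptides, and both aminopeptidases are known from pericytes, kidney and gut epithelium.

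The study removed a transcription factor, so the sequence upstream of the member with the largest decrease is shown beside those of the members with the most positive differences, Anpep and Ace. The 250 bases before the RefSeq start are printed 5′ to 3′ on the gene's own strand (GRCm38.p6), and capitals mark matches to the motifs searched. The Enpep window is chr3:129332750-129332999 (minus strand), the Anpep window chr7:79848211-79848460 (minus strand) and the Ace window chr11:105967698-105967947 (plus strand), before the first of the Ace starts in RefSeq.
Enpep: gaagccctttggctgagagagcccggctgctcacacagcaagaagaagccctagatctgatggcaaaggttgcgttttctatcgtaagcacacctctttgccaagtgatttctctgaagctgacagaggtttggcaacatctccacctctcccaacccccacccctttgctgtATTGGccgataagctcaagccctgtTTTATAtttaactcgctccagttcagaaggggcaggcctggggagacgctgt
Anpep: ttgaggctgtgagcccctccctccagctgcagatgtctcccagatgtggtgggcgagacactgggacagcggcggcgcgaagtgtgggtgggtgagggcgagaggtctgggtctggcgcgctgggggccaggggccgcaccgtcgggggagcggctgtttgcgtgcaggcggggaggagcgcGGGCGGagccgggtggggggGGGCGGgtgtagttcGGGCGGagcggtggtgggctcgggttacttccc
Ace: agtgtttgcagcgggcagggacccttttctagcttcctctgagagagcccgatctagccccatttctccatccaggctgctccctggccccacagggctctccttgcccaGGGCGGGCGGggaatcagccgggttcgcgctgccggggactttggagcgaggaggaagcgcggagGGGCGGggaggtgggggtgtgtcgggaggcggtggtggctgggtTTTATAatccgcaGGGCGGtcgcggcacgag

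The motifs were searched on both strands in the 250-base windows of 8 of the 9 members, all but Agtr1a, and in all 32851 windows of the table. The Enpep window held 1 match to the TATA box letters (TATAAA) and 1 to the CCAAT box (CCAAT), which occur in 12.4% and 33.8% of all windows. The Anpep window held 3 and the Ace window 4 matches to the GC box (GGGCGG, in 32.7% of windows), 2 of those of Ace overlapping, and the Ace window also held 1 to the TATA letters. The G and C content was 52.4% for Enpep, 72.8% for Anpep and 67.2% for Ace, against a median of 52.4% over all windows. Neither the full palindromic glucocorticoid response element, a pair of inverted half-sites with 3 bases between them (found in 3 windows of the table), nor the AP-1 motif TGANTCA (6.75% of windows) nor the receptor half-site AGAACA (16.1%) was found in these 3 windows. Among the other members, a half-site was found for Dpp4 and an AP-1 match in a window of Mme.

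Nr3c1 itself fell by 0.47 on the log2 scale (SE 0.064, limma adjusted p = 0.00767), from 11.07 to 11.34 in GRflox to 10.61 to 10.83 in corneaGRKO libraries. Of the 10 corneal epithelium markers, Krt12, Krt5 and Aldh3a1 were the highest, with means between 18.94 and 20.11 in both groups. None of the 10 was at 0. Summed levels of photoreceptor, pigment cell and conjunctival markers were higher in every corneaGRKO library than in any GRflox library, and highest in replicate 4. Of 9 photoreceptor markers 4 were tested, and 0 passed the limma threshold. A limma unadjusted p under 0.05 was found for 1 of them, against 16.5% of all tested entries. The log2 of the summed photoreceptor markers was 8.18 to 8.26 in GRflox and 8.92, 8.42, 10.32 and 8.33 in corneaGRKO replicates 1, 3, 4 and 5. For pigment cell markers (7 genes) it was 10.60 to 10.72 against 10.82 to 11.17, and for conjunctival markers (9 genes) 15.29 to 15.65 against 15.84 to 16.59. By the limma threshold 1 of 4 tested pigment cell markers and 3 of 7 tested conjunctival markers were higher, against 1.33% of all tested entries. No gene of these lists was at 0 in every library. In the conjunctival sum Krt13 (means 14.83 in GRflox and 15.38 in corneaGRKO) and Krt4 (12.80 and 13.83) weighed most. The 7 tested conjunctival markers had differences from 0.022 to 1.03, all positive. Differences were small for Agr2 (0.022) and Krt18 (0.06), and for Muc5ac (0.022) and Spdef (0.034), which were not tested. For the tested members, differences without corneaGRKO replicate 4 are given beside the main ones.

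All values are the deposited log2 normalized levels, and differences are corneaGRKO minus GRflox on that scale. Entries with a mean of at least 5 over the 8 libraries were tested with limma, which took in 7 of the 9 members. Of 13269 entries tested, 245 passed an adjusted p of 0.05, which is 1.85%, with 1.33% higher and 0.52% lower in corneaGRKO. Among the 7 tested members 1 passed, Enpep, for which the family was chosen, so nothing is read from this count. The groups did not overlap for 2 of the 7, Enpep and Anpep, against 10.5% of all tested entries (5.89% higher and 4.61% lower). Enpep was chosen by its difference, so nothing is read from this count either, and the groups of Anpep were only 0.051 apart. The median difference of the 7 was -0.041, against -0.00867 over all tested entries.

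Enpep (Entrez gene 13809, chromosome 3), encoding aminopeptidase A, had levels of 11.49, 11.26, 11.48 and 11.59 in GRflox replicates 1, 3, 4 and 5, and of 10.89, 10.84, 10.73 and 10.88 in the corneaGRKO libraries of the same numbers. Every corneaGRKO library lay below every GRflox library, and the space between the groups (0.369) was wider than the range within either group (0.328 and 0.157). The mean was 11.46 ± 0.139 (SD, n = 4) in GRflox and 10.84 ± 0.0713 in corneaGRKO, a difference of -0.62, or 0.651 times the control level. It stood first among the decreases of all tested entries, and the next, Stfa1 and Arntl, both had -0.51. In whole cornea, fewer cells that express a gene and less RNA per cell cannot be told apart, for Enpep as for the other members. Without corneaGRKO replicate 4 the difference of Enpep was -0.59, and it was -0.60 without replicates 1 and 4 together. For markers of pericytes and smooth muscle, cells in which Enpep is known to be expressed, the mean deviation from GRflox was taken over 7 tested genes. It was 0.01, 0.27, 0.34 and 0.10 in corneaGRKO replicates 1, 3, 4 and 5. Of these 7 genes, 0 passed the limma threshold and 3, all higher, had an unadjusted p under 0.05, against 16.5% of all tested entries. The log2 summed level of all 10 listed, in which the most abundant genes weigh most, was 13.95 to 14.08 in corneaGRKO against 14.03 to 14.13 in GRflox. For corneal epithelium markers the mean deviation was 0.06, -0.01, -0.07 and 0.00, with a summed level of 21.00 to 21.44 against 21.27 to 21.49. This mean joins genes of both directions, since the differences of the 10 ran from -0.23 to 0.48, with 5 positive and 5 negative. Of these 10, 0 passed the limma threshold. For corneal endothelium markers (4 genes, all tested) the mean deviation was -0.06, -0.08, -0.10 and -0.06 in the same libraries. Their summed level was 14.81 to 14.89 in corneaGRKO against 14.89 to 15.01 in GRflox. Differences of the 4 ran from -0.26 to 0.042, with 1 positive and 3 negative. None passed the limma threshold, and 1, lower, had an unadjusted p under 0.05, against 16.5% of all tested entries. The part of any of these cell classes in the Enpep value was not tested.

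**Figure D1:**
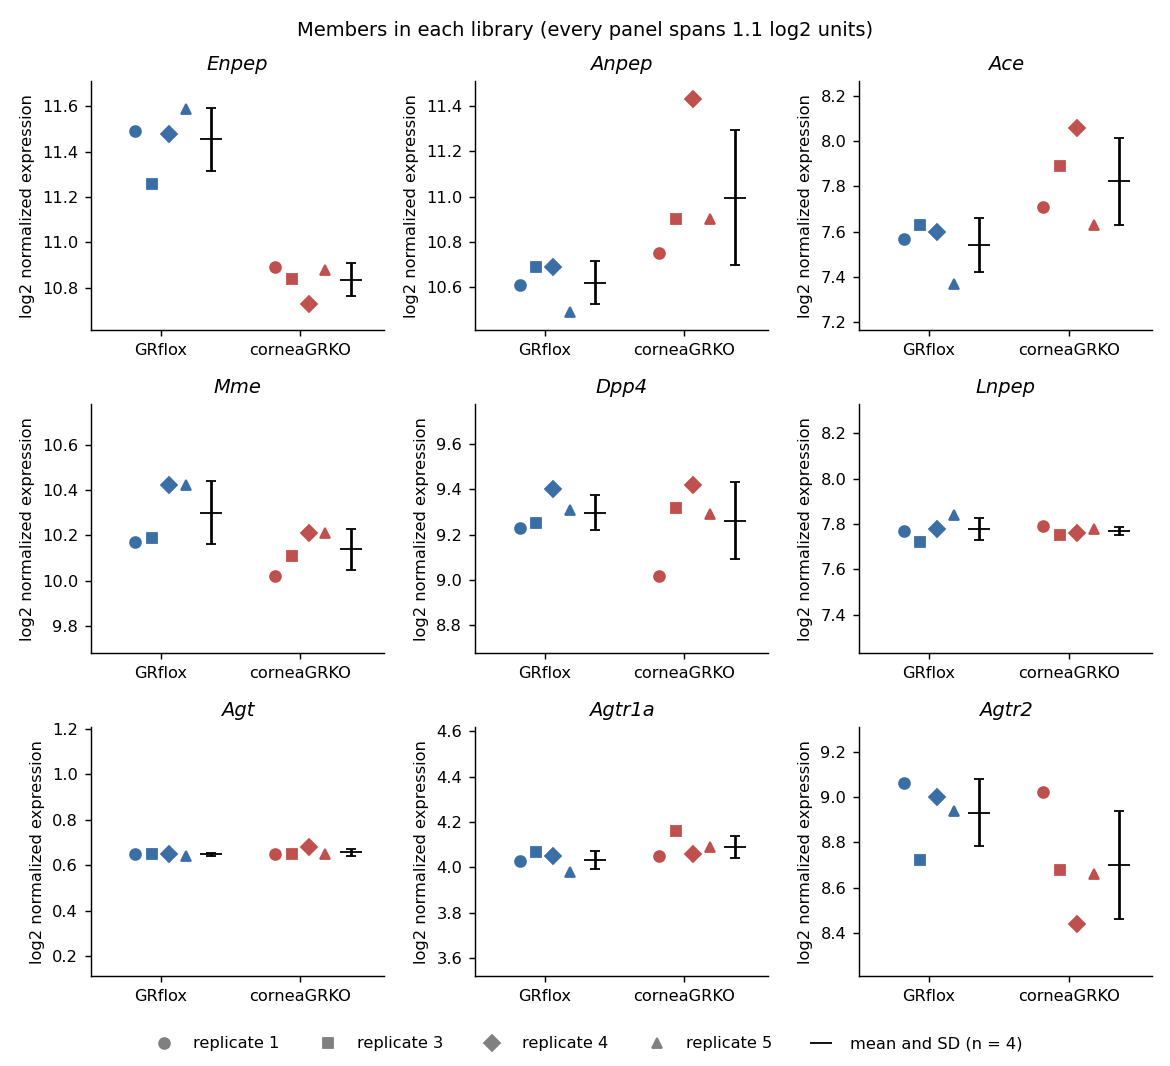
The log2 normalized level of each member (vertical axis, the same span in every panel) is plotted for every library by group, with symbols for replicate numbers and black bars for the mean and SD of 4 libraries. Enpep lies at 10.73 to 10.89 in corneaGRKO and at 11.26 to 11.59 in GRflox, Anpep and Ace are highest in corneaGRKO replicate 4, while all libraries lie between 7.72 and 7.84 for Lnpep and between 0.64 and 0.68 for Agt.

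Anpep (Entrez gene 16790, chromosome 7), encoding the neutral aminopeptidase that follows Enpep in the breakdown of angiotensin, had the opposite direction. Its levels were 10.61, 10.69, 10.69 and 10.49 in GRflox replicates 1, 3, 4 and 5, and 10.75, 10.90, 11.43 and 10.90 in corneaGRKO. All corneaGRKO libraries lay above all GRflox libraries, but by only 0.051, and replicate 4 stood well above the others. The means were 10.62 ± 0.0931 and 10.99 ± 0.3, a difference of 0.37 (SE 0.124, 95% interval 0.098 to 0.65) that did not pass the test (limma adjusted p = 0.163). The SD within corneaGRKO was larger than that of 99.4% of the 2168 entries with a mean within 0.5 of its own. Without corneaGRKO replicate 4 the difference was 0.23 (adjusted p = 0.105). The conjunctival marker mean was also highest in that library, at 0.94 above GRflox against 0.35 to 0.45 in the other three, and its part in the value of Anpep was not tested.

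Set against each other in the same library, the log2 level of Anpep minus that of Enpep was -0.88, -0.57, -0.79 and -1.10 in GRflox and -0.15, 0.07, 0.70 and 0.02 in corneaGRKO replicates 1, 3, 4 and 5. The Enpep value was thus the larger of the pair in every GRflox library, and the Anpep value was the larger in 3 of 4 corneaGRKO libraries. This comparison of levels is not per length and rests partly on the decrease for which Enpep was chosen, so it carries no test.

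Ace (Entrez gene 11421, chromosome 11) encodes angiotensin-converting enzyme, which makes angiotensin II and degrades bradykinin. Its levels were 7.57, 7.63, 7.60 and 7.37 in GRflox and 7.71, 7.89, 8.06 and 7.63 in corneaGRKO replicates 1, 3, 4 and 5. The groups overlapped by a narrow margin, since GRflox replicate 3 and corneaGRKO replicate 5 had nearly equal values. The difference of 0.28 (SE 0.0919, 95% interval 0.073 to 0.48) did not pass the test (limma adjusted p = 0.163), and it was 0.20 without corneaGRKO replicate 4 (adjusted p = 0.309). Ace is known as an enzyme of vascular endothelium. The blood endothelium markers had mean deviations of 0.06, 0.28, 0.26 and 0.07 in corneaGRKO replicates 1, 3, 4 and 5, so that replicates 3 and 4 were the higher pair for both. The same pair was the higher for the macrophage, conjunctival, keratocyte and pericyte and smooth muscle lists, so this order is not particular to endothelium. None of the 10 endothelial markers passed the threshold by limma, and 6, all higher, had an unadjusted p under 0.05, against 16.5% of all tested entries. The log2 summed level of the endothelial markers was 10.75 to 10.88 in GRflox and 10.77 to 10.95 in corneaGRKO. Their part in the Ace value was not tested.

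Mme (Entrez gene 17380, chromosome 3) encodes neprilysin, an endopeptidase that degrades angiotensins, enkephalins and natriuretic peptides. It had levels of 10.17, 10.19, 10.42 and 10.42 in GRflox and 10.02, 10.11, 10.21 and 10.21 in corneaGRKO. Within both groups replicates 4 and 5 were the higher libraries, and the groups overlapped. The difference was -0.16 (SE 0.0697, 95% interval -0.32 to -0.0092) and did not pass (limma adjusted p = 0.276), and it was -0.19 without corneaGRKO replicate 4 (adjusted p = 0.326).

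Dpp4 (Entrez gene 13482, chromosome 2), a serine peptidase that clips dipeptides from chemokines and gut hormones, had levels of 9.23, 9.25, 9.40 and 9.31 in GRflox and 9.02, 9.32, 9.42 and 9.29 in corneaGRKO. All but corneaGRKO replicate 1 fell within 9.23 to 9.42. The difference was -0.041 (SE 0.0787, 95% interval -0.22 to 0.13, limma adjusted p = 0.815), and its direction depended on single libraries. Leaving out corneaGRKO replicate 1 gave 0.04, and leaving out replicate 4 gave -0.094. Lnpep (Entrez gene 240028, chromosome 17) encodes the insulin-regulated aminopeptidase, which binds angiotensin IV and is stored in vesicles with the glucose transporter of muscle and fat. Its 8 levels ran from 7.72 to 7.84. The difference was -0.0039 with a 95% interval of -0.088 to 0.08 (limma adjusted p = 0.968), and its sign changed with median centring (0.001). Without corneaGRKO replicate 4 it was -0.0022. The SD of Lnpep within corneaGRKO, 0.0149, was small, and only 1.32% of 1667 entries of like level had a smaller one.

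Enpep, Mme and Agtr2, the receptor gene, varied more between GRflox libraries than most entries of like level, with an SD above that of 90.7%, 90.4% and 93.1% of them.

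The genes for the ligand precursor and the receptors differed widely in level. Agt (Entrez gene 11606, chromosome 8), the angiotensinogen gene, was listed at 0.64 to 0.65 in GRflox and 0.65 to 0.68 in corneaGRKO, far under the limit for testing. Its only value off this line was that of corneaGRKO replicate 4. The difference of 0.011 did not pass without a filter on level either (limma adjusted p = 0.527). Agtr1a (Entrez gene 11607, chromosome 13), encoding the type 1 receptor that mediates constriction of vessels, stood at 4.03, 4.07, 4.05 and 3.98 in GRflox and 4.05, 4.16, 4.06 and 4.09 in corneaGRKO. Those ranges overlapped, and the difference of 0.057 did not pass without a filter (limma adjusted p = 0.38). On the deposited scale, differences of such weakly expressed genes may be compressed.

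Agtr2 (Entrez gene 11609, chromosome X) encodes the type 2 receptor, which is abundant in fetal tissue and largely opposes the type 1 receptor. It was the receptor gene with the higher level in all 8 libraries. Its levels were 9.06, 8.72, 9.0 and 8.94 in GRflox and 9.02, 8.68, 8.44 and 8.66 in corneaGRKO replicates 1, 3, 4 and 5. Replicates 3, 4 and 5 of corneaGRKO lay below all GRflox libraries, while replicate 1 lay among them. The difference of -0.23 (SE 0.112, 95% interval -0.48 to 0.019) did not pass (limma adjusted p = 0.338). It was -0.14 without corneaGRKO replicate 4 (adjusted p = 0.655) and -0.34 without replicate 1 (adjusted p = 0.0592).

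**Figure D2:**
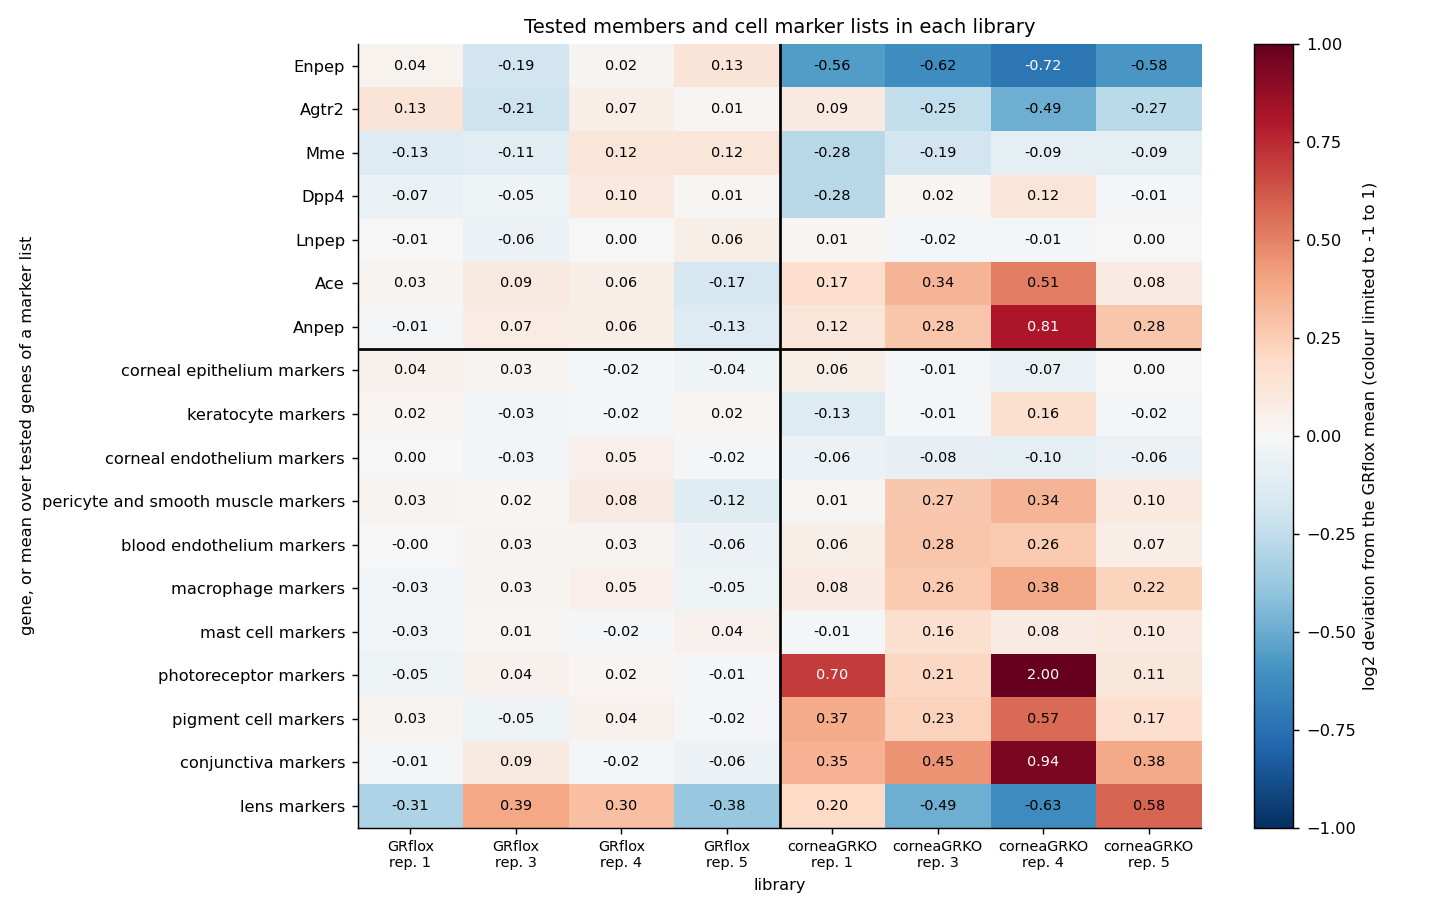
Each cell gives the log2 deviation of a library (columns) from the GRflox mean, for the 7 tested members (upper rows) and for the mean of the tested genes of each cell marker list (lower rows). Enpep is at -0.56 to -0.72 in all 4 corneaGRKO libraries, while Anpep (0.81), Ace (0.51) and the photoreceptor (2.0), pigment (0.57) and conjunctival (0.94) lists are highest in replicate 4, where Agtr2 (-0.49) is lowest.

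In corneaGRKO replicate 4, the library with the most photoreceptor, pigment and conjunctival marker RNA, Anpep, Ace and Dpp4 were at their highest among the corneaGRKO libraries and Enpep and Agtr2 at their lowest. Replicate 1, with the next highest photoreceptor deviation (0.70 against 2.0 in replicate 4), had Enpep at -0.56, Anpep at 0.12 and Agtr2 at 0.089, each the closest to GRflox among the 4 libraries. Mme and Dpp4, both at -0.28, were furthest from GRflox in that same library, and Ace was at 0.17, against 0.084 in replicate 5. Of 9 macrophage markers, all tested, 4 were higher by the limma threshold, against 1.33% of all tested entries. The macrophage markers had mean deviations of 0.08, 0.26, 0.38 and 0.22 in corneaGRKO replicates 1, 3, 4 and 5. They were lowest in replicate 1 and highest in replicate 4, as was Anpep, which myeloid cells are known to express. The conjunctival, keratocyte and pericyte and smooth muscle lists had their lowest and highest means in the same libraries, so this order is not particular to macrophages. The log2 summed level of the macrophage markers was 13.33 to 13.56 in GRflox and 13.37 to 13.67 in corneaGRKO, and their part in the value of Anpep was not tested. Keratocyte markers (10 genes, all tested) had mean deviations of -0.13, -0.01, 0.16 and -0.02. This mean joins genes of both directions, since the differences of the 10 ran from -0.33 to 0.74, with 4 positive and 6 negative. By the limma threshold 3 of the 10 were lower, against 0.52% of all tested entries, and 0 were higher.

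To compare levels between genes, log2 of the exon length was subtracted from each level, with lengths in kilobases from GENCODE M21. On this per-length scale Enpep stood first in GRflox at 9.39 ± 0.139 (SD, n = 4), above 86.6% of entries when averaged over all libraries, and Anpep followed at 8.70 ± 0.0931. Agtr2 (7.21 ± 0.147), Mme (7.20 ± 0.137) and Dpp4 (6.90 ± 0.0769) came next, and Agtr2 and Mme did not differ beyond their spread. Ace had 5.19 ± 0.119, Lnpep 4.18 ± 0.0491, Agtr1a 2.90 ± 0.0391 and Agt -0.27 ± 0.00351. In corneaGRKO the order of the leading pair was the other way, with Anpep at 9.07 ± 0.3 and Enpep at 8.77 ± 0.0713, a difference about the size of the SD of Anpep. That lead came mostly from replicate 4, where Anpep had 9.51 and Enpep 8.67. Without it the per-length levels were 8.92 ± 0.0897 and 8.80 ± 0.0296 (SD, n = 3), and in replicate 1 they were 8.82 and 8.83. Over all 4 corneaGRKO libraries, the per-length levels of Agtr2 (6.98 ± 0.238), Mme (7.04 ± 0.0915) and Dpp4 (6.86 ± 0.171) lay within their spread of each other.

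**Figure D3:**
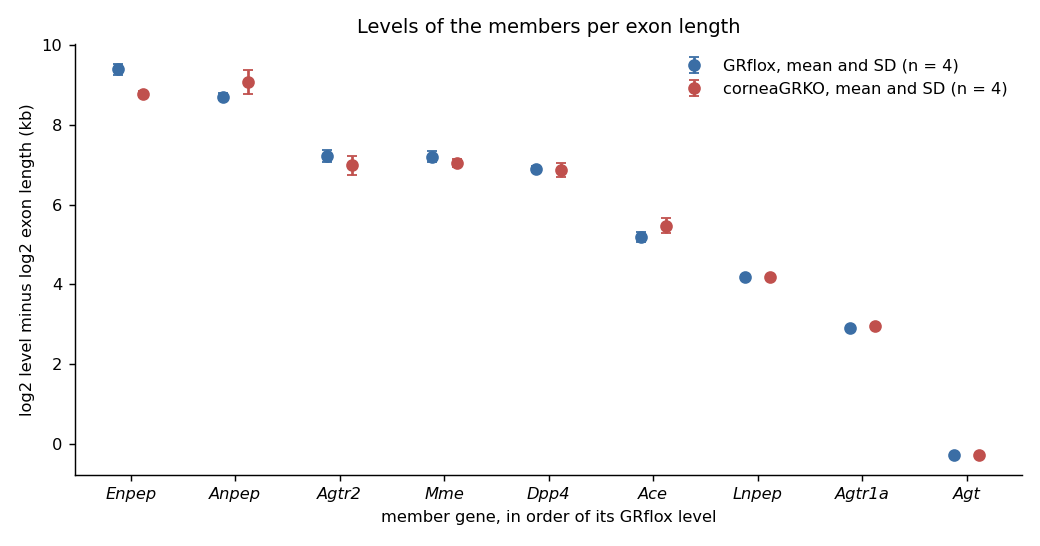
The vertical axis is the log2 level minus the log2 exon length in kilobases, and points and bars are the mean and SD of 4 libraries per group, in order of the GRflox level. Enpep leads in GRflox (9.39), Anpep and Enpep stand close together in corneaGRKO (9.07 and 8.77), while Agtr1a (2.90 and 2.95) and Agt (-0.27 and -0.26) are far lower.

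Other genes that make, cut or sense angiotensins and kinins were taken from a list of 21, all of them in the table, of which 9 were tested. None passed the limma threshold, and 3 had an unadjusted p under 0.05 (2 higher and 1 lower), against 16.5% of all tested entries. Their differences ran from -0.095 to 0.14, with 4 positive and 5 negative and a median of -0.027, against -0.00867 over all tested entries. Renin, which starts the cascade, had no signal, since Ren1 and Ren2 were listed at 0 in every library. These are near-identical copies, whose shared reads may not have been counted. Among receptors that were not tested, Agtr1b was at -2.24 in both groups and Mas1, a receptor of a shorter angiotensin peptide, at 1.01 and 1.02.

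Prcp, a lysosomal carboxypeptidase that can cut angiotensin II, had levels of 7.68, 7.70, 7.54 and 7.58 in GRflox and 7.79, 7.78, 7.73 and 7.72 in corneaGRKO. Its groups did not overlap, and the difference of 0.13 did not pass (SE 0.0459, limma adjusted p = 0.197). Agtrap, which binds the type 1 receptor and promotes its internalization, had levels of 9.79 to 9.85 in GRflox and 9.69 to 9.75 in corneaGRKO, also without overlap, and a difference of -0.095 (SE 0.0347, adjusted p = 0.199). Rnpep, which encodes aminopeptidase B, had a per-length level above that of every member, 11.80 ± 0.0569 in GRflox, and a difference of 0.028 (SE 0.0376, adjusted p = 0.729). Cma1, a mast cell chymase that in humans forms angiotensin II, was too low to be tested. It stood at 4.53 to 4.63 in GRflox and at 4.65 to 4.85 in corneaGRKO. Of the other mast cell markers, Mcpt4 was higher on average in corneaGRKO by 0.15 and Tpsb2 by 0.13. Both were too low to be tested, and their groups did not overlap. Cpa3 was higher by 0.14 (limma adjusted p = 0.263). Differences were smaller for Ms4a2 (0.055), Kit (0.026) and Fcer1a (0.0059). Without a filter on level, Cma1, Mcpt4 and Tpsb2 did not pass either (limma adjusted p = 0.105, 0.112 and 0.133). The log2 summed level of the 7 mast cell markers, 12.70 to 12.88 in GRflox and 12.72 to 12.95 in corneaGRKO, was almost all Kit, which other cells also express. The part of mast cells in the Cma1 value was not tested.

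Of 34 listed relatives of the member peptidases, all in the table, 18 were tested, and 0 passed the limma threshold. An unadjusted p under 0.05 was found for 2 of the 18 (1 higher and 1 lower), against 16.5% of all tested entries. Their differences ran from -0.13 to 0.24 with a median of -0.0048, and 9 were positive and 9 negative.

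Of the zinc aminopeptidase family of Enpep, Anpep and Lnpep, 6 of 7 listed relatives were tested. Lvrn, listed in the table as 4833403I15Rik, had a difference of 0.10 (SE 0.0511, limma adjusted p = 0.343), and Rnpepl1 had -0.062 (SE 0.0397, adjusted p = 0.459). Of the relatives of Mme and Ace, Ece1, which encodes the endothelin-converting enzyme, had levels of 12.06, 12.07, 12.16 and 12.03 in GRflox and 12.18, 12.30, 12.58 and 12.21 in corneaGRKO. All corneaGRKO libraries lay above all GRflox libraries, and replicate 4 was the highest, as for Anpep and Ace. The difference of 0.24 did not pass (SE 0.0787, limma adjusted p = 0.163), and it was 0.15 without corneaGRKO replicate 4 (adjusted p = 0.172). Ece2 had a difference of -0.032 (adjusted p = 0.728). Of the relatives of Dpp4, Fap, a peptidase of activated fibroblasts, had a difference of 0.034 (adjusted p = 0.719), and Dpp8, a cytosolic dipeptidyl peptidase, of 0.044 (adjusted p = 0.625). Cpd, a carboxypeptidase of the secretory pathway, was lower in all corneaGRKO libraries (13.35 to 13.47 against 13.52 to 13.61), with a difference of -0.13 that did not pass (adjusted p = 0.126), and Dpep1, a dipeptidase, had -0.082 (adjusted p = 0.605).

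**Figure D4:**
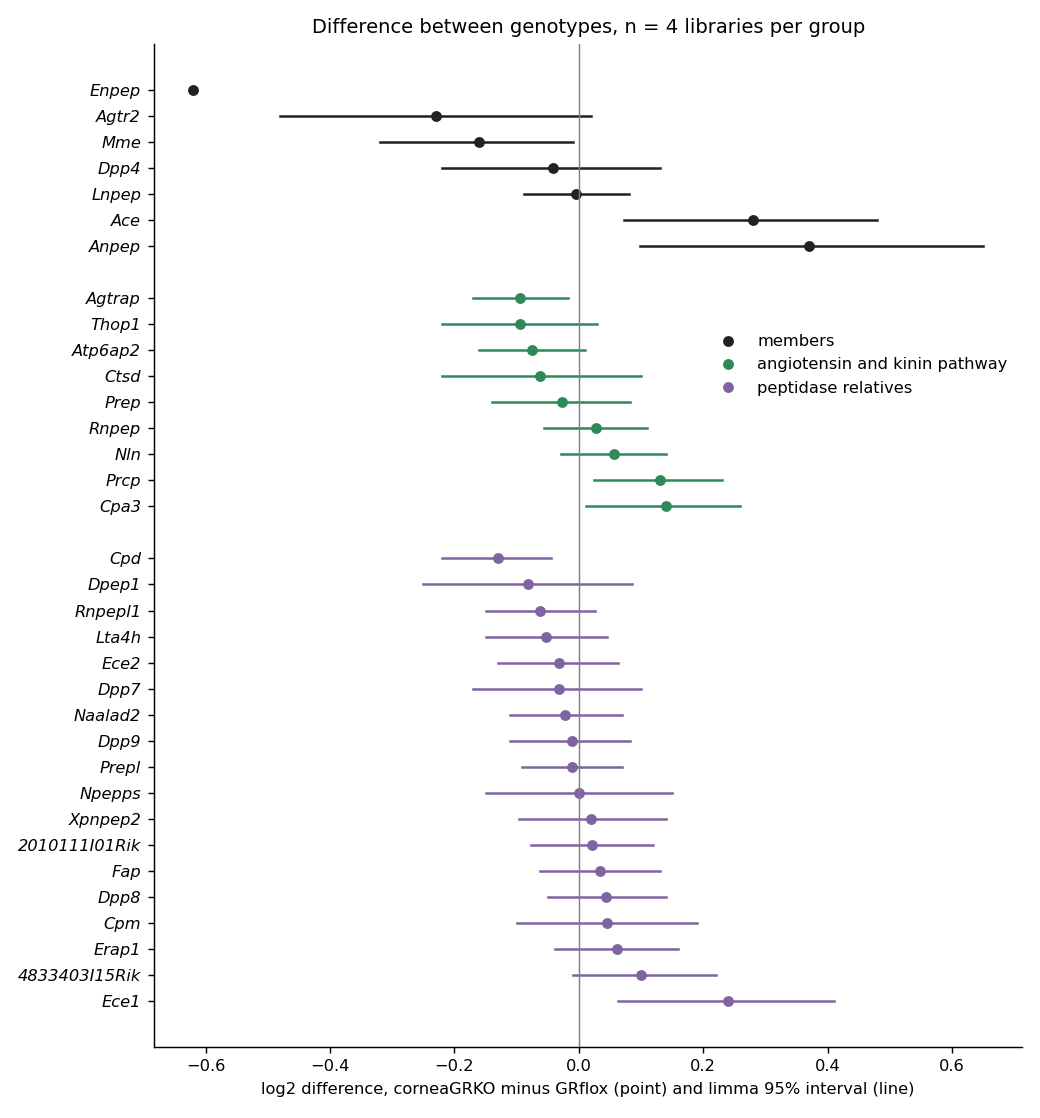
Points are log2 differences, corneaGRKO minus GRflox, and lines are 95% intervals from limma (n = 4 per group; none is drawn for Enpep, which was chosen by its difference), for the tested members (black), the other angiotensin and kinin genes (green) and the peptidase relatives (purple). Enpep (-0.62) lies furthest left, and Anpep (0.37), Ace (0.28) and Ece1 (0.24) lie furthest right.

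The genes whose levels followed Enpep most closely over the 8 libraries, by Pearson's r, were Rbpms2 (0.988), Cks2 (0.986), Klc2 (0.981), Rbm20 (0.98) and Fam46c (0.979). Their own differences were smaller, from -0.12 for Klc2 to -0.29 for Rbpms2. In all, 113 entries had r above 0.9, and the difference between the groups is part of these correlations. After the group means were removed, the closest were Pcsk2 (0.943), Snph (0.939), Ednrb (0.937), Mmab (0.931) and Fam46c (0.925), and 10 entries were above 0.9. Pcsk2 encodes a peptidase that matures prohormones, and Ednrb a receptor of the endothelins. Ednrb had levels of 11.63, 11.36, 11.55 and 11.63 in GRflox and 11.41, 11.38, 11.21 and 11.35 in corneaGRKO, lowest in GRflox replicate 3 and corneaGRKO replicate 4 within each group, as Enpep was, a likeness fixed by how it was chosen. All these figures describe 8 libraries that share depth and composition, and the genes were picked from the tested entries for their likeness. Unnamed gene models, Y-linked genes and Xist were left out of this search and of its counts.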

How the data were processed

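The deposited table gives log2 normalized expression per gene, which the authors made with Bowtie2, HTSeq and DESeq2, as named without versions per the submitters' processing notes. Reads were 75 nt pairs, more than 40000000 per sample, per the labels. The depth of each library and the transformation behind the log2 values are not known, so no counting interval is given. The build is mm9 in the notes and mm10 in the labels' protocols. Printed coordinates and sequences belong to RefSeq's GRCm38.p6 and were used with no coordinate of the files. Exon lengths (GENCODE M21, by symbol) were found for 93.8% of entries.

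Groups and replicate numbers came from titles. Entries with a mean of at least 5 (13269) were fitted in limma 3.58.1 (R 4.3.3) with a mean-variance trend and group as the only term, two-sided, with Benjamini-Hochberg adjustment. The spread behind each p-value is that among pools of corneas. In simulated data with independent genes (13269, of which 200 changed), this fit for corneaGRKO against GRflox called 62.7%, 94% and 100% of genes changed by 0.25, 0.5 and 1. Lists were matched by symbol or Entrez gene. The smallest median difference between libraries was 0.0427, so none was a duplicate, and 0 value columns lay outside the 8 libraries.

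Members and lists were chosen with earlier results of these data known. Named genes are the members, Nr3c1, per list the genes past the threshold or else the 2 with the smallest adjusted p, and the 5 most like Enpep by each measure. Cell marker lists are given as sums and counts. A gene of the angiotensin and kinin list is not reported here and is left out of its counts. Rnpep, Ren1, Ren2, Agtr1b, Mas1, Cma1, Mcpt4, Tpsb2, Cpa3, Kit, Ms4a2, Fcer1a, Krt12, Krt5, Aldh3a1, Stfa1 and Arntl were named after their values were seen. So were Krt13, Krt4, Krt18, Muc5ac, Agr2 and Spdef. The 18 alternatives were the replicate block, no filter, a minimum of 7, median centring, quantile normalization, no trend, a pseudocount of 16, library weights, robust moderation, each library left out, and corneaGRKO replicates 1 and 4 left out together.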

Additional observations from a re-analysis of the deposited data

Results flagged for a closer look

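A library is named here when it stands apart from the other 3 of its group by more than Dixon's 95% limit for 4 values, which chance alone does in about 1 of 20 groups. Of 60 groups of values examined, 4 did. Agt was highest in corneaGRKO replicate 4, at 0.68 against 0.65 in the next library, a small step at a level too low to be tested. The other 3 values belong to genes picked for their correlation with Enpep, so that libraries low for Enpep are low for them by that choice. These are GRflox replicate 3 for Mmab, at 9.95 (next 10.02), and for Rbm20, at 8.82 (next 8.93), and corneaGRKO replicate 4 for Rbm20, at 8.58 (next 8.69). The causes were not tested.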

How the results depend on the processing

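Enpep kept its direction under all 18 alternatives, with differences from -0.68 to -0.55, and from -0.68 to -0.58 when 1 library was left out. Enpep was chosen by its difference, so nothing is read from this. The groups of Enpep and of Anpep did not overlap, so leaving out libraries could not reverse either gene. Anpep (0.23 to 0.46), Ace (0.20 to 0.34), Mme (-0.21 to -0.098) and Agtr2 (-0.34 to -0.14) also kept theirs. Dpp4 reversed with library weights (0.015), without corneaGRKO replicate 1 (0.04) and without corneaGRKO replicates 1 and 4 (0.00082), and ran from -0.094 to 0.04 over the libraries left out. Lnpep reversed with median centring (0.001), library weights (0.01), without GRflox replicate 5 (0.016) and without corneaGRKO replicate 3 (0.002), with a range of -0.023 to 0.016. The cause of these changes was not tested. Over all entries, the number past the threshold was 245, and it became 663 once the replicate block was added and 1980 under library weights. It was 68 to 574 with 1 library left out, namely 95, 114 and 68 without GRflox replicates 1, 3 and 5, and 574, 83 and 137 without corneaGRKO replicates 1, 3 and 5. The count of members past the threshold, 1 in the main analysis, became 3 once the replicate block was added and 2 under library weights. Each count includes Enpep, from which nothing is read, and the members added were Ace (adjusted p = 0.0308) and Mme (0.0454) with the block and Anpep (0.0395) with the weights. The adjusted p ran from 0.0308 to 0.367 for Ace, 0.0454 to 0.501 for Mme and 0.0395 to 0.357 for Anpep over all alternatives. Of the angiotensin and kinin genes 1, lower in corneaGRKO, passed with library weights and 0 with the replicate block. Of the peptidase relatives, 1 passed with the block (Ece1, 0.0409) and 2 with weights (Ece1, 0.0335, and Cpd, 0.0387). The weights come from the same libraries, so those p-values may be too small. The labels do not say that replicate numbers pair libraries, and deviations from the group means of same-numbered libraries had correlations of 0.514, -0.284, 0.259 and 0.0611 for numbers 1, 3, 4 and 5, so the numbers were not taken as pairs. GRflox replicate 3 correlated best with corneaGRKO replicate 1. Depth is unknown, so the counting precision of the low genes Agt and Agtr1a cannot be given.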
